A study of Danio rerio with 6 samples.

Results

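The 100 transcripts described here were present in every library of sorted zebrafish tail endothelial cells and had higher shares of the reads after injection of leukaemia-derived extracellular vesicles (EVs). They were chosen on these values. A level was expressed in CPM, the estimated count of a transcript divided by the library's total count and multiplied by 1000000. Of 57192 transcripts listed, 10396 had at least 10 counts in all 6 libraries, and 10197 remained eligible once the 200 with the highest mean CPM were dropped. The eligible transcripts were ranked by the lowest CPM of any EV library over the highest CPM of any control library. The 100 with the largest ratio were taken. In every one of them, all EV libraries therefore stand above all control libraries by construction, and no test supports that difference.

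The EV group was 3 libraries from flk:GFP larvae injected with EVs of MV4-11 cells, and the control group was 3 libraries from flk:GFP larvae injected with phosphate-buffered saline (PBS). All larvae were labelled WT, and all carried green fluorescent protein under the flk promoter, so the sort gate rests on the activity of that promoter. The flk gene codes for a receptor of vascular endothelial growth factor. MV4-11 is a human acute myeloid leukaemia line. Tails of pooled larvae were cut 24 h after injection and about 100000 fluorescent cells went into each RNA preparation, which was amplified for 15 cycles. The sources used here give neither larval age nor EV dose, and do not say whether the 3 replicates came from different pools or days. Spread between the libraries may therefore be technical in part.

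Endothelial cells line blood vessels. In the tail of the zebrafish larva they form the caudal artery and vein, and the vein region holds a niche in which blood stem cells settle and multiply. EVs are membrane-bound particles that carry protein and RNA from the cell that released them, and endothelial and scavenger cells of fish larvae are known to take up particles from the circulation. The deposited identifiers are Ensembl transcripts, and 0 of the 100 matched a gene in the reference tables used here, so no gene name, function, position or sequence is given for any of them. For the same reason the endothelial identity of the libraries and the content of other cell types were not checked against marker genes. In RNA from bulk sorts, more cells of a type and more RNA per cell cannot be told apart.

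Total estimated counts ran from 10393944 to 18806442 in the EV libraries and from 17350094 to 24332767 in the PBS libraries. PBS replicate 3 stood apart, with a mean correlation of 0.61 (log2 CPM, across transcripts) with the other 5 libraries, which had means of 0.72 to 0.77. The 200 most abundant transcripts took 49.4%, 48.5% and 56.0% of the counts in EV replicates 1, 2 and 3, and 50.4%, 56.2% and 60.8% in PBS replicates 1, 2 and 3. CPM is taken over the whole library, these 200 transcripts included.

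Together the 100 transcripts made up little of each library, and their share was 3.28 times as large in EV as in PBS libraries. Their summed level was 1384, 1278 and 1466 CPM in EV replicates 1, 2 and 3, against 492.3, 481.2 and 283.3 CPM in PBS replicates 1, 2 and 3. The EV libraries averaged 1376 ± 94.0 CPM and the PBS libraries 418.9 ± 117.6 CPM (SD, n = 3 each). With library totals the EV libraries lay close to each other, and PBS replicate 3 was low among the PBS libraries. Both statements depend on that scaling, and the sums were not computed under the other scalings given below. As a share of all counts this was 0.128% to 0.147% in EV and 0.0283% to 0.0492% in PBS.

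**Figure D1:**
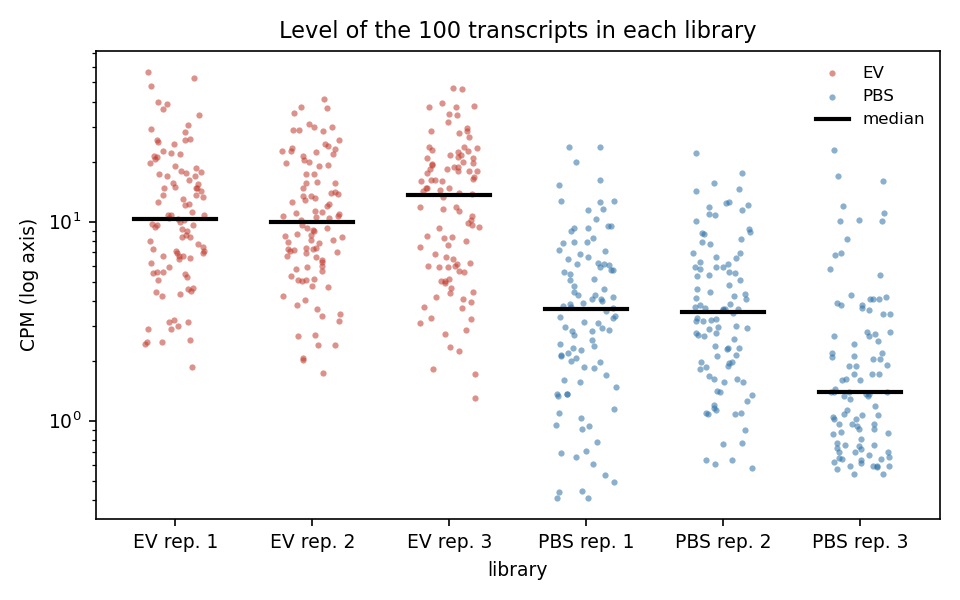
CPM on a log axis of each of the 100 transcripts in each library, with the median as a bar. Medians were 10.4, 9.93 and 13.5 CPM in EV replicates 1, 2 and 3, against 3.62, 3.53 and 1.40 CPM in PBS replicates 1, 2 and 3, and PBS replicate 3 holds the most points near the bottom.

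Most of these transcripts were scarce. Their mean level over the 6 libraries had a median of 7.18 CPM and ran from 1.51 to 31.8 CPM, against a median of 13.1 CPM for all eligible transcripts. With the eligible transcripts cut into 4 equal parts by mean level, 40 of the 100 were in the lowest part, 39 in the next, 21 in the third and 0 in the highest. In EV replicates 1, 2 and 3, 52, 50 and 57 of them reached 10 CPM, against 11, 13 and 8 in PBS replicates 1, 2 and 3. No EV library had any of them under 1 CPM, while 14, 7 and 35 were under 1 CPM in PBS replicates 1, 2 and 3. The selection puts every EV value above every PBS value, so these counts at 10 and 1 CPM follow largely from it. They were not computed over the eligible transcripts. The low levels of the set may also follow in part from the selection, since large ratios can arise more readily where counting error is large. That was not tested.

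Few reads lie behind many of the PBS values. The median count of the 100 transcripts was 194.9, 103.2 and 201.5 in EV replicates 1, 2 and 3, against 88.1, 61.3 and 26 in PBS replicates 1, 2 and 3. In 33 of the 100 the lowest count of any library was under 15, close to the floor of 10 that the selection sets. Counts under 20 were found for 0, 1 and 1 of them in EV replicates 1, 2 and 3, and for 11, 12 and 38 in PBS replicates 1, 2 and 3. With exact 95% Poisson intervals, 75 of the 100 had every EV interval above every PBS interval, and in the other 25 at least 1 pair of intervals overlapped. The 100 were chosen for the gap between the groups, so this count follows largely from the selection. The share over all eligible transcripts was not computed. Such intervals cover no variation beyond counting error, and they can be too narrow even for that. Amplified reads without molecular identifiers are not separate molecules, and the counts are estimates.

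The ratio that ranked the transcripts ran from 1.50 to 3.37, with a median of 1.70. It reached 2 in 23 transcripts and 3 in 2. The last transcript taken had a ratio of 1.50031 and the first one left out 1.50017, so the edge of the selection separates nothing. At rank 100 the levels were 7.29, 7.81 and 4.06 CPM in EV replicates 1, 2 and 3, and 2.71, 2.32 and 0.776 CPM in PBS replicates 1, 2 and 3. The first one left out had 12.6, 10.7 and 14 CPM in the EV libraries, against 6.36, 7.15 and 1.26 CPM in the PBS libraries. The fold of the group means by library totals ran from 1.80 to 9.51 in the 100 with a median of 3.41, and 34 reached 4-fold. All eligible transcripts had a median fold of means of 1.15 with the same scaling.

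Transcripts with all EV libraries above all PBS libraries numbered 555 of the 10197 eligible, or 5.44%, and the 100 are the top of these. The opposite order, with all EV libraries below all PBS libraries, was found for 103. Of the eligible transcripts, 63.2% had a higher mean CPM in EV by library totals. This balance turned with the scaling. In the edgeR fits given below, the median log2 change of the eligible transcripts was 0.20 with library totals. It was -0.25 with TMM and -0.19 with DESeq2 size factors, the other scalings explained below. Among the 200 most abundant transcripts, 3 had all EV libraries above all PBS libraries, and their highest ratio of 1.24 would not have entered the 100.

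**Figure D2:**
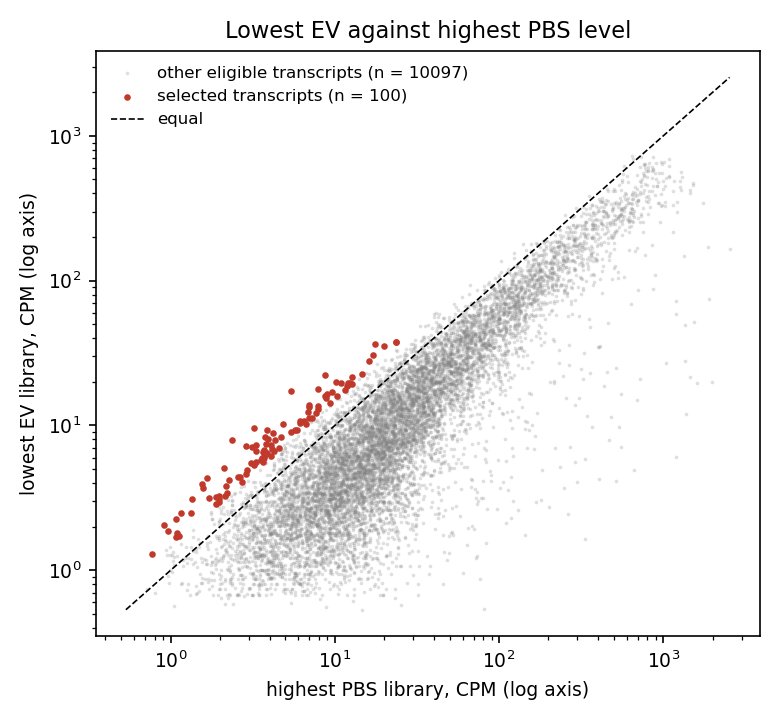
Lowest EV level (vertical) against highest PBS level (horizontal), both in CPM on log axes, for the 10197 eligible transcripts. The 100 selected ones lie above the line of equality as the selection requires, at low to middle levels, and most of the others lie below it.

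ENSDART00000125821.3 ranked the highest, with a ratio of 3.37. It had 7.96, 8.11 and 8.0 CPM in EV replicates 1, 2 and 3, against 0.945, 2.36 and 1.39 CPM in PBS replicates 1, 2 and 3. By library totals the EV libraries were almost equal, at 8.02 ± 0.0805 CPM, and the PBS libraries spread more widely, at 1.57 ± 0.725 CPM (SD, n = 3 each). The other scalings given below change the EV libraries by unequal factors, so this near equality holds for library totals only. Its counts were 149.6, 84.3 and 119 in EV and 23, 41 and 25.95 in PBS. The lowest Poisson bound in EV was 6.47 CPM and the highest in PBS 3.21 CPM.

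ENSDART00000148326.3 came next, with a ratio of 3.22. It had 17.4, 17.3 and 31.7 CPM in EV replicates 1, 2 and 3, against 5.12, 5.37 and 2.11 CPM in PBS replicates 1, 2 and 3. EV replicate 3 was the high library and PBS replicate 3 the low one, so the libraries numbered 3 held the widest contrast. Group means were 22.1 ± 8.29 CPM in EV and 4.20 ± 1.81 CPM in PBS (SD, n = 3 each), a 5.26-fold difference. Its counts were 326.6, 179.3 and 471.2 in EV and 124.5, 93.1 and 39.3 in PBS.

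The transcripts at ranks 3 to 10 had ratios from 2.36 to 2.98. At the third rank the levels were 9.62, 10.4 and 16.0 CPM in EV replicates 1, 2 and 3, against 1.36, 3.23 and 1.72 CPM in PBS replicates 1, 2 and 3. At the sixth, the most abundant of the first 10, they were 22.2, 29.8 and 22.3 CPM in the EV libraries and 6.21, 8.76 and 1.07 CPM in the PBS libraries. Group means of the first 10 ran from 4.68 to 24.8 CPM in EV and from 0.852 to 5.35 CPM in PBS. Their lowest count in any library was between 10 and 39.3.

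**Figure D3:**
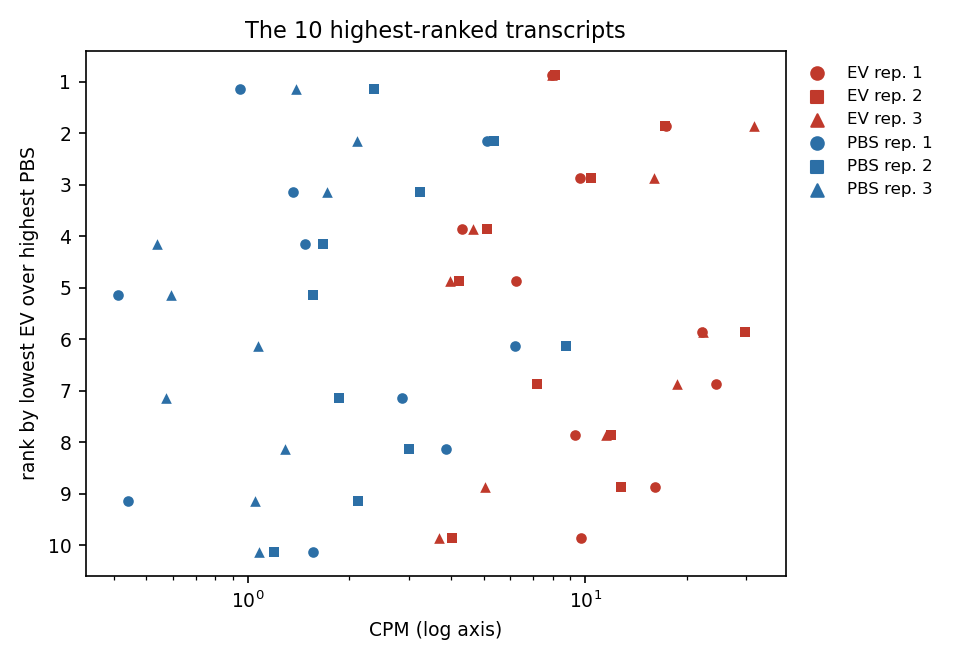
CPM on a log axis in every library for the 10 highest-ranked transcripts, EV above PBS in each row, with a marker shape for each replicate number. EV points of the first row coincide near 8 CPM, and PBS replicate 3 is the lowest of the PBS libraries in 6 of the 10 rows.

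The selected transcripts differed in how steady they were within a group. The highest EV library was under 2-fold of the lowest in 63 of the 100, against 40.0% of the eligible transcripts. In the PBS group the same held for 34 of the 100, against 17.0% of the eligible. The median coefficient of variation of the 100 was 29.7% in EV and 47.3% in PBS, against 40.2% in EV and 65.0% in PBS for all eligible transcripts. A ratio that sets the lowest EV against the highest PBS library favours steady transcripts, so these shares follow in part from the selection. They were computed by library totals and not under the other scalings given below.

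Both groups stayed within 2-fold in 24 transcripts by library totals. The share over all eligible transcripts was not computed. The scalings given below change the libraries of a group by unequal factors, so this steadiness holds for library totals only. The 24 had median levels of 9.90, 10.3 and 12.5 CPM in EV replicates 1, 2 and 3, and 3.86, 4.64 and 3.99 CPM in PBS replicates 1, 2 and 3. Their median fold of means was 2.61. The transcript with the smallest sum of the coefficients of variation in EV and PBS, at rank 35, had 39.8, 30.9 and 37.4 CPM in the EV libraries against 15.3, 15.7 and 17.0 CPM in the PBS libraries. It and the transcripts named by rank from here on were picked out after their values were seen.

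By library totals, PBS replicate 3 gave the low end of the PBS values in most of the 100. This order changed with the scaling, as given below. PBS replicate 3 was the lowest PBS library in 63 of them and the highest in 11, against 49.8% and 29.5% of the eligible transcripts. The level in PBS replicate 3 was below the mean of PBS replicates 1 and 2 in 83 of the 100, against 63.2% of the eligible. Its median ratio to that mean was 0.546, against 0.652 for all eligible transcripts. A transcript high in any PBS library has a low ratio, so the selection bears on this order and it was not tested. In the 63 where it was lowest, median levels were 13.3, 11.1 and 14.4 CPM in EV replicates 1, 2 and 3 and 4.18, 3.63 and 1.29 CPM in PBS replicates 1, 2 and 3. In the 11 where it was highest, they were 9.22, 8.95 and 11.8 CPM in EV and 2.82, 2.14 and 3.59 CPM in PBS.

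The highest PBS library exceeded the lowest by over 5-fold in 21 transcripts, and in 19 of these PBS replicate 3 was the lowest. Such spread was not particular to the 100. Their highest PBS library over the lowest had a median of 2.69 and an upper quartile of 4.66. For all eligible transcripts these were 4.21 and 7.83. The widest of the 21, at rank 48, had 47.9, 28.7 and 27.9 CPM in EV replicates 1, 2 and 3, against 16.2, 14.2 and 0.619 CPM in PBS replicates 1, 2 and 3. The last of these values rests on 11.5 counts. Since the rank rests on the highest PBS library, the low value in PBS replicate 3 enters the fold of means of such transcripts but not their rank.

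By library totals, EV replicate 3 was often the high EV library. It was the highest in 44 of the 100 and the lowest in 35, against 23.9% and 63.8% of the eligible. Since a transcript low in EV replicate 3 has a low ratio, the selection bears on this order and it was not tested. In 12 of the 100, EV replicate 3 was at least 2-fold above both other EV libraries, as in 7.06% of the eligible. The same held for 3 with EV replicate 1 and for 0 with EV replicate 2, against 2.97% and 3.12% of the eligible. Median levels of the 12 were 6.72, 6.32 and 21.2 CPM in EV replicates 1, 2 and 3, against 2.64, 2.08 and 0.939 CPM in PBS replicates 1, 2 and 3. The most uneven, at rank 86, had 4.57, 3.42 and 29.6 CPM in the EV libraries and 2.19, 0.896 and 1.34 CPM in the PBS libraries, so that its 8.50-fold difference of means rests on a single EV library.

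Each EV library was also set against the PBS library with its number, although the labels do not say that equal numbers mark a pair. The 100 had median folds by library totals of 2.75, 2.78 and 5.41 for numbers 1, 2 and 3. For all eligible transcripts these were 1.02, 1.55 and 1.33. Number 3 gave the largest of the folds in 66 transcripts, number 1 in 21 and number 2 in 13. All of these folds were 2 or more in 56 of the 100. By the selection no such fold could be under 1.50, and these counts were not computed over the eligible transcripts. The scalings given below change an EV library and the PBS library with its number by unequal factors. The folds of the 100 and of all eligible transcripts therefore hold for library totals only.

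The largest fold of means, 9.51, belonged to rank 7. It had 24.5, 7.21 and 18.7 CPM in EV replicates 1, 2 and 3, against 2.86, 1.87 and 0.571 CPM in PBS replicates 1, 2 and 3, the last from 10.6 counts. The most abundant of the 100, at rank 75, had 56.4, 41.3 and 37.6 CPM in the EV libraries and 23.6, 9.14 and 22.9 CPM in the PBS libraries. The scarcest, at rank 90, had 2.87, 1.73 and 2.35 CPM in the EV libraries against 0.411, 0.576 and 1.13 CPM in the PBS libraries, with 10 counts in each of PBS replicates 1 and 2. Across the 100, rank correlation of the ratio with mean level was -0.13 (Spearman, over transcripts that share the same libraries), a weak relation given as a description.

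How far the groups stood apart depended on the scaling. Library totals are sensitive to a few abundant transcripts, and 2 other scalings set the libraries level on the bulk of transcripts: TMM, the trimmed mean of log ratios in edgeR, and the median-of-ratios size factors of DESeq2. Relative to their totals and to the geometric mean of all 6, TMM made the EV libraries 1.32, 1.41 and 0.872 times as large and the PBS libraries 1.2, 0.806 and 0.638 times as large. Levels in PBS replicate 3 were thereby raised the most, and those in EV replicate 2 lowered the most.

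Under TMM, 70 of the 100 kept every EV library above every PBS library, where 2.62% of eligible transcripts did so. Under DESeq2 size factors it was 75 of the 100 and 3.17%. All 70 were also among the 75. The 100 were chosen for the largest ratios in these same counts, so their excess over the eligible shares follows largely from the selection. The median ratio was 1.26 under TMM and 1.28 under DESeq2 size factors, and the lowest was 0.695 and 0.765, at rank 90. The median fold of means of the 100 was 2.70 under TMM and 2.78 under DESeq2 size factors, against 3.41 with library totals. The lowest was 1.29 under TMM and 1.34 under DESeq2 size factors, against 1.80 with library totals. In the 30 that overlapped under TMM, PBS replicate 3 was the highest PBS library in 17 and PBS replicate 2 in 13, while EV replicate 2 was the lowest EV library in 21 and EV replicate 1 in 9. Over all 100, PBS replicate 3 was the highest PBS library in 30 under TMM and 29 under DESeq2 size factors, against 11 with library totals. EV replicate 3 was the lowest EV library in 14 under each, against 35 with library totals. Under TMM and DESeq2 size factors these orders were not computed over the eligible transcripts. The opposite order, all EV libraries below all PBS libraries, then covered 5.23% of eligible transcripts under TMM and 4.48% under DESeq2 size factors, against 1.01% with library totals. The balance of the 2 directions thus turned with the scaling.

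The first 10 ranks held under both scalings, with ratios from 1.55 to 2.20 under TMM and from 1.56 to 2.30 under DESeq2 size factors. This was fixed in advance, since they were ranked on ratios of 2.36 or more. The largest EV factor and smallest PBS factor were 1.41 and 0.638 under TMM, and 1.34 and 0.667 under DESeq2. Factors of this size cannot bring such a ratio down to 1. ENSDART00000125821.3 had 1.96 under TMM and 2.04 under DESeq2 size factors, and ENSDART00000148326.3 had 1.84 and 1.92. The highest TMM ratio, 2.20, belonged to rank 9, with 16.1, 12.8 and 5.05 CPM in EV replicates 1, 2 and 3 against 0.440, 2.12 and 1.05 CPM in PBS replicates 1, 2 and 3 by library totals. At ranks 51 to 100, 28 held under TMM. The transcript with the smallest summed coefficients of variation, at rank 35, and the most abundant, at rank 75, both overlapped under TMM, with ratios of 0.822 and 0.818.

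**Figure D4:**
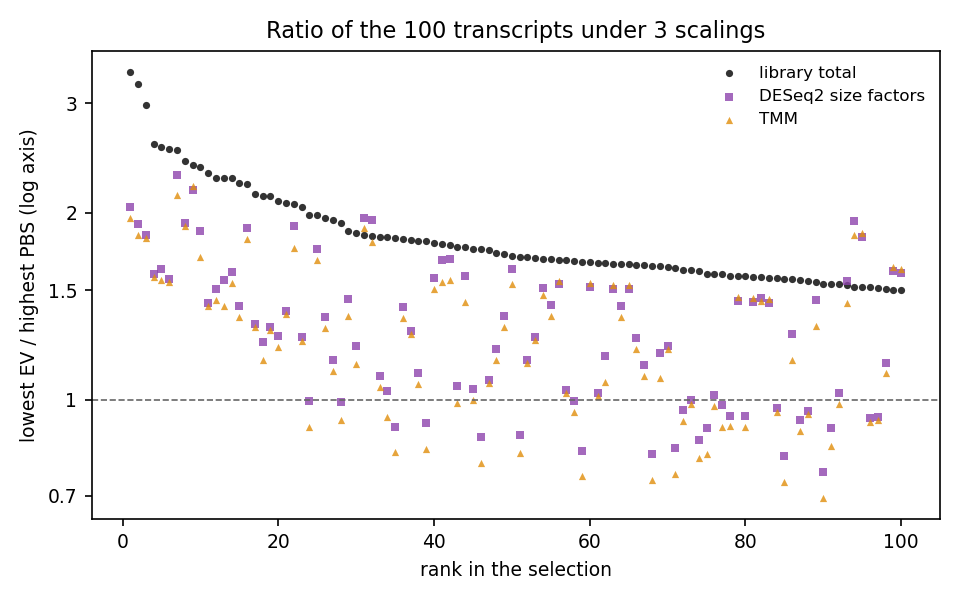
Lowest EV over highest PBS level (log axis) of the 100 transcripts by rank, with library totals, DESeq2 size factors and TMM. Library totals give 1.50 or more throughout by selection, while 30 points under TMM and 25 under DESeq2 size factors lie at or below the dashed line at 1, where the groups overlap.

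In the fit of all 18959 tested transcripts, with TMM and the group as its only term, the fitted log2 change of the 100 was above 0 in each and ran from 0.37 to 2.99. Its median was 1.43, beside -0.20 for all tested transcripts, and the median standard error was 0.88. With library totals the medians were 1.77 for the 100 and 0.23 for all, a shift of 0.43 for all, so the distance between them was 1.63 with TMM and 1.53 with totals. ENSDART00000125821.3 had a fitted log2 change of 1.83 ± 0.93 and ENSDART00000148326.3 of 2.11 ± 0.74 (standard error). These changes come from the contrast that chose the transcripts and describe its size only.

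No transcript of the 100 passed the test across all transcripts. At a Benjamini-Hochberg adjusted p of 0.05, edgeR's quasi-likelihood F test called 0 of the 18959 transcripts (0%), with a smallest adjusted p of 0.243. At an unadjusted p under 0.05 it listed 547 transcripts, of which 173 were higher in EV, or 0.912% of those tested, and 17 of these were among the 100. With library totals in place of TMM, 281 of 416 were higher in EV. DESeq2 called 62 transcripts, 29 of them higher in EV (0.153%), and 0 of the 100, of which 1 had no adjusted p. At an unadjusted p under 0.05 DESeq2 listed 795 transcripts, of which 278 were higher in EV, or 1.47% of those tested, and 34 of these were among the 100. Since the 100 were taken for their difference in these libraries, their counts at an unadjusted p carry no weight as support. Within groups, the common biological coefficient of variation in the edgeR fit was 93.3%, with 3 libraries per group. At such a spread, the 0 calls of edgeR do not show that the groups are alike.

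Which transcripts made up the 100 depended on each library and on the floor. With a minimum of 5 counts 70 of them were chosen again, and with 20 counts 58. With TMM or DESeq2 size factors it was 52 in each case. With the 200 most abundant transcripts kept in, all 100 were chosen again. Without EV replicate 1, 2 or 3, 71, 76 and 36 of them were among the new first 100, and without PBS replicate 1, 2 or 3 it was 8, 33 and 31. All EV libraries stood above all PBS libraries in 2348 of 10576 eligible transcripts without PBS replicate 1, and in 2047 of 10512 without EV replicate 3. Leaving out any other library gave from 723 of 10369 (EV replicate 2) to 1186 of 11950 (PBS replicate 3). With all libraries it was 555 of 10197, or 5.44%. Fewer libraries make this order easier to meet, so these counts are not like for like with the 555. PBS replicate 1 was the highest PBS library in 47.0% of eligible transcripts, and EV replicate 3 the lowest EV library in 63.8%. Only 2 of the 100 were chosen in all 6 selections that left out 1 library.

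**Figure D5:**
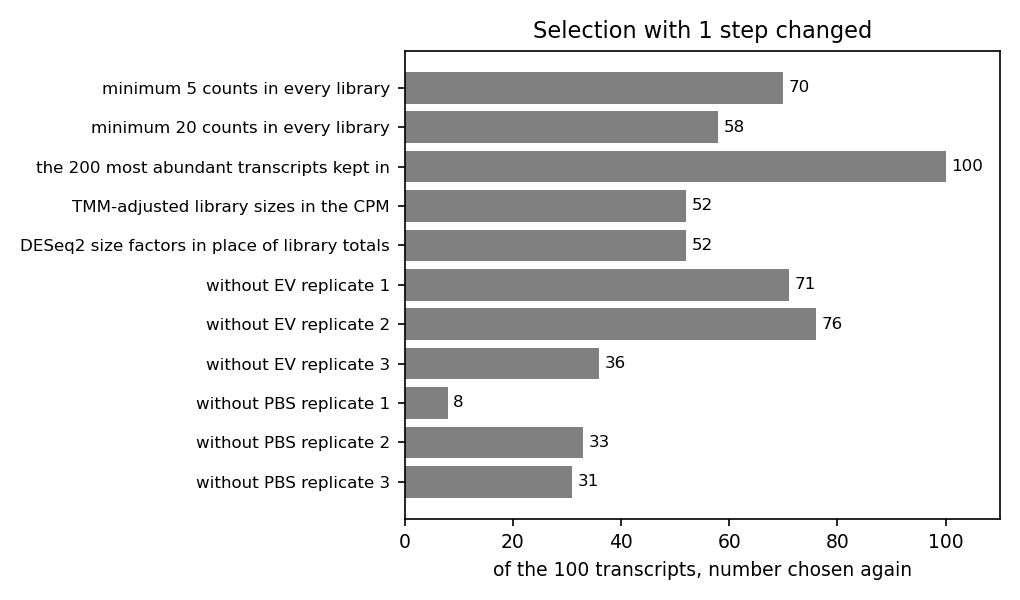
Number of the 100 transcripts chosen again (bars, from 0) when 1 step of the selection was changed. It runs from 8 without PBS replicate 1 to 100 with the 200 most abundant transcripts kept in.

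Estimated counts that are not whole arise when a read is divided among similar transcripts, and most of the 100 had them. In 47 of them all 6 values were not whole numbers, as deposited and with no tolerance, and in 21 all 6 were whole. Among eligible transcripts these shares were 49.4% and 22.9%. The median ratio was 1.70 for the 21 with whole values and 1.70 for the other 79. ENSDART00000148326.3 had non-whole values in all 6 libraries and ENSDART00000125821.3 in 3. Where a value was divided, a transcript can gain reads at the expense of a similar one, and its part in these differences was not tested.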

How the data were processed

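RNA of sorted tail endothelial cells was sequenced as 150 bp paired reads in 3 EV and 3 PBS libraries, grouped by their titles. The authors deposited estimated counts per Ensembl transcript, not normalised; Trim Galore 0.5.0, Salmon 0.03.1, edgeR 3.40.1 and build GRCz11 are named in the submitters' processing notes, without roles. CPM used the deposited values. Rounded counts that passed filterByExpr entered edgeR 4.0.16 (quasi-likelihood F test, TMM, R 4.3.3), with DESeq2 1.42.0 as an alternative, after tests on simulated data. Those tests required changes to be recovered only at a spread set far below that of these data. Standard errors are the size of the fitted change divided by the root of its F value. The 100 transcripts, lists and tests were chosen with earlier results of these data known. The rule for named genes gives the 2 transcripts of largest ratio by identifier and the others by rank, since none could be tied to a gene. The marker and pathway lists were not used for that reason.

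Replicate numbers 1, 2 and 3 occur in both groups and the labels do not say what they mark. Deviations from the group means correlated at 0.13, 0.24 and 0.25 for equal numbers and between -0.20 and 0.03 for others. With 3 libraries per group these deviations are not independent of each other, so they do not establish a pairing. The main fit had the group only. On the ground of these data alone, a fit with the number as a block was run beside it. In edgeR's quasi-likelihood F test the smallest adjusted p was 0.927 with the block and 0.243 without it.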

Additional observations from a re-analysis of the deposited data

How the results depend on the processing

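The count of 0 transcripts past the threshold held in edgeR with DESeq2 size factors, library totals, 10 counts in every library, the replicate block and each library left out. It was 427 without a filter on low counts and 62 with DESeq2; the cause was not tested, and 0 of the 100 were called in any of these fits. With the replicate block the edgeR count was 0 and the median log2 change of the 100 was 1.45, so it changed no call. That median kept its direction throughout, which the selection largely fixes, and ran from 1.1 to 1.84 without 1 library. The median of all tested transcripts was -0.20 with TMM and 0.23 with library totals, and from -0.22 to 0.06 without 1 library. Of the 100, 58 were chosen again with a minimum of 20 counts, 52 with TMM and 52 with DESeq2 size factors. Without 1 library it was 8 to 76, namely 36 without EV replicate 3, 8 without PBS replicate 1, 33 without PBS replicate 2 and 31 without PBS replicate 3. Overlap between groups appeared in 30 with TMM and 25 with DESeq2 size factors. Both transcripts given by identifier kept their direction in the 9 alternative fits run on them. They were chosen with every EV library above every PBS library by library total, so leaving 1 library out cannot reverse that order. Their direction in these fits is therefore no support for the difference. Low counts limit the precision of single values: 38 of the 100 had under 20 counts in PBS replicate 3, and 11 and 12 in PBS replicates 1 and 2.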

Other observations

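The floor of 10 counts in every library leaves out transcripts that are scarce or undetected after PBS. Below it, 739 transcripts with a count in some PBS library had a ratio of lowest EV to highest PBS level at least as large as that of the last transcript chosen, and 327 of these had 10 or more counts in all 3 EV libraries. A further 40 had 10 or more counts in each EV library and 0 in each PBS library. These were not analysed further, and at such counts the ratio carries a large counting error.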
